A study of Mus musculus with 9 samples.

Results

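The circRNAs compared here are those measurable on every array of ischemic postconditioning (IPO) and ischemia-reperfusion (I/R) livers. A circRNA probe was taken when the scanner software marked it as well above background on all 6 arrays, 3 per group, and 5273 of the 14236 circRNA probes on the array met this rule. All 9 livers of the series came from male C57BL/6 mice, 8 weeks old by their labels, and were chosen at random within their groups, 3 mice per group. The I/R group underwent 1 h of partial liver ischemia and 4 h of reperfusion. In the IPO group, 3 cycles that alternated 5 s without flow and 5 s with flow came before the reperfusion phase. The methods name this group I/R with postconditioning added, and give no separate length of ischemia or of the final reperfusion for it. The normal (N) mice had sham surgery only. Total RNA of each liver was digested with RNase R, which degrades linear RNA, then labelled with Cy3 and hybridized to 1 array.

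A circRNA is an RNA whose ends have been joined by the splicing machinery into a ring, and without a free end it resists exonucleases such as RNase R. CircRNAs accumulate in slowly dividing tissue such as liver, and some bind microRNAs or proteins. Reperfusion after a period without blood flow adds oxidative and inflammatory injury to the liver, and postconditioning interrupts the returning flow with short occlusions. The comparison asks how the circRNA profile of the postconditioned livers differed from that of the I/R livers. The deposited arrays identify a circRNA by a probe number (ASCRP followed by digits) with no host gene or sequence, so each circRNA is described by its number. The hepatocyte, Kupffer cell, endothelial, stellate and leukocyte markers could therefore not be looked up, and the makeup of the tissue was not checked. In whole liver, fewer cells of a type and less circRNA per cell cannot be told apart.

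The I/R arrays differed among themselves more than the IPO arrays did. The number of circRNA probes above background was 12256 to 12504 on the IPO arrays, against 8088, 5489 and 13207 on I/R 1 to I/R 3. The median background-corrected intensity of the 5273 circRNAs was 44.2, 38.9 and 237 on I/R 1 to I/R 3, and lay between 113 and 146 on the IPO arrays. The local background was highest on the same dim arrays, with medians of 27 and 33.5 against 16 to 17 on the other 4. Each of these dim arrays had a scan of its own and another grid file, IPO 3 also had its own scan, and the other 3 arrays of the comparison were in scan 1 with the N arrays. The part of array quality in the differences between groups was not tested beyond the comparisons given with and without these arrays. Over the 5273 circRNAs, the correlation of normalized log2 signal was 0.945 for the 2 dim I/R arrays, but 0.689 between I/R 3 and the first of them and 0.795 between I/R 3 and I/R 2. The 3 IPO arrays correlated with each other at 0.946 to 0.955, and with the I/R arrays at 0.728 to 0.841. These correlations are across circRNAs, which are not independent, and the arrays share their probes and their normalization.

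The rule kept mostly the circRNAs that I/R 2 could measure. Of the 8963 circRNA probes left out, 6549 were well above background on all 3 IPO arrays and not on all 3 I/R arrays, and 4 had the reverse pattern. I/R 2 alone kept out 2675 circRNAs that the other 5 arrays measured, I/R 1 alone kept out 153, and no other array alone kept out more than 1. The probes were divided by the mean normalized signal of the 3 IPO arrays into 5 classes of 1054 or 1055 circRNAs, from class 1, the dimmest, to class 5, the brightest. Brightness depends on the probe as well as on the RNA, so the classes rank signals and not molecules. Within the signal limits of class 1, 6717 circRNA probes were well above background on the IPO arrays and 15.7% of them met the rule. The share was 65.6% in class 2, 84.3% in class 3, 92.8% in class 4 and 95.1% in class 5. Class 5 is therefore close to a complete set of the circRNAs bright in IPO, and class 1 is a small part of the dim ones.

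At the methods' thresholds (limma p below 0.05 without adjustment, fold change 2.0 or more), 464 circRNAs were higher in IPO than in I/R livers (8.8% of the 5273) and 671 were lower (12.7%). Over all 14236 circRNA probes, with no requirement on background, 1403 were higher (9.86%) and 1337 were lower (9.39%). At an adjusted p below 0.05, 192 circRNAs were higher (3.64%) and 160 were lower (3.03%), and over all circRNA probes 215 were higher (1.51%) and 25 were lower (0.176%). The 352 adjusted calls became 196 without I/R 1, 66 without I/R 2, 70 without IPO 1 or without IPO 2, 64 without IPO 3 and 1675 without I/R 3, and the 671 lower became 1150 without I/R 3 and 442 without IPO 2. Of the 464, 369 were also called without I/R 3, and of the 671, 570 were. The median difference over all 5273 was -0.26 on the log2 scale, and the median standard error of a difference was 0.43 with 3 arrays per group. The balance of directions moved with the processing. Of the calls, 40.9% were higher in IPO, against 62.3% with normexp correction of the raw median intensity (offset 50), 55.0% with that raw median itself, and 32.8% with scaling of the processed signal by the 75th percentile. In that order, these alternatives gave 292, 359 and 372 higher and 177, 294 and 761 lower, so the number higher fell in each. Filters that admit circRNAs dim on I/R arrays also turned the balance. There were 1410 higher and 938 lower of 12392 circRNA probes when 3 of the 6 arrays had to be well above background. The numbers were 1409 and 850 of 11822 when the 3 IPO arrays had to be, and 1394 and 901 of 11892 when the 3 N arrays had to be. The first 2 of these filters admit many circRNAs through the IPO arrays, where they are high, so their excess of increases is tied to the filter.

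Among the called circRNAs compared here, those higher in IPO changed more than those lower. The median fold change was 3.04 among the 464 and 2.49 among the 671. A change of at least 4-fold was called for 152 circRNAs higher in IPO and for 39 lower, and at least 8-fold for 51 and 3. Of the 152, 136 belonged to class 5, and of the 39, 20 belonged to class 1. Changes of these sizes were not counted over all circRNA probes, so the difference in size between the directions is not known beyond this selection. All 19 circRNAs with a change of at least 16-fold were higher in IPO and belonged to class 5. Because the classes follow the IPO signal and the rule needs a measurable I/R signal, so large an increase nearly requires class 5. The 464 had a median signal of 6.38, 6.47 and 6.37 (log2) on I/R 1 to I/R 3, and of 8.16, 8.31 and 8.42 on IPO 1 to IPO 3. On the N arrays, which took no part in the calls, the same circRNAs had medians of 8.03, 8.06 and 8.15. The 671 had medians of 7.07, 7.04 and 6.61 on the I/R arrays, 5.54, 5.46 and 5.54 on the IPO arrays, and 5.76, 5.77 and 5.72 on the N arrays. In both directions the medians of the N arrays lay nearer to those of the IPO arrays than to those of the I/R arrays. All class 1 circRNAs, called or not, had medians of 5.84, 5.79 and 5.00 on I/R 1 to I/R 3. Their medians were 4.83 to 4.92 on the IPO arrays and 4.89 to 4.99 on the N arrays. The N arrays were in scan 1 with IPO 1, IPO 2 and I/R 3. I/R 1 and I/R 2 had other scans and another grid file. The part of the rule and of the scans in the likeness of N and IPO was not tested.

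The difference between IPO and I/R moved with the IPO signal. Its class median was -0.77 in class 1, -0.33 in class 2, -0.15 in class 3, 0.03 in class 4 and 0.25 in class 5 (log2). The middle 50% of the circRNAs spanned -1.13 to -0.42 in class 1 and -0.38 to 1.17 in class 5, so the bright class was spread widely in both directions while the dim class was shifted downward. The classes were formed from the IPO values that also enter the difference, which by itself places low differences among the dim and high differences among the bright. With the classes formed from the N arrays instead, the medians were -0.71, -0.31, -0.17, -0.02 and 0.13 from class 1 to class 5. The positive median of the bright classes turned negative when the classes were formed from all 6 arrays (-0.07 in class 4 and -0.10 in class 5) or when arrays were scaled by the 75th percentile (-0.14 in both).

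Class 5 held 268 of the 464 circRNAs higher in IPO, against 239 with classes from the N arrays and 156 with classes from all 6 arrays. The 268 called higher were 25.4% of class 5, against 12.1% of class 4 (128), 5.98% of class 3 (63), 0.474% of class 2 (5) and none in class 1. A total of 74 class 5 circRNAs were lower (7.01%). At the adjusted threshold in limma, 149 of class 5 were higher and 27 were lower. The count of class 5 circRNAs higher in IPO was between 251 and 296 when any 1 of the I/R arrays was left out, and 377 against I/R 3 alone, where the spread comes from the IPO arrays only. It was above the count of those lower under normexp correction (241 against 68), with the raw signal (259 against 75), with 75th percentile scaling (195 against 174) and with classes from all 6 arrays (156 against 132). In each of these settings but the last, and with I/R arrays left out, the classes were formed again from the IPO signal. That by itself favours increases in class 5.

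Class 1 held the most circRNAs lower in IPO, with 316 (30.0%), followed by class 2 with 134 (12.7%). The counts were 71 (6.74%) in class 3 and 76 (7.20%) in class 4. The decrease in class 1 is tied to the rule that chose the circRNAs. The lowest normalized signal of any of them was 4.09, 5.12 and 2.11 on I/R 1 to I/R 3 and 2.18 to 2.64 on the IPO arrays. The mean IPO signal of 731 circRNAs, all of class 1, lay below 5.12, so these had to be lower in IPO than on I/R 2. No circRNA of class 1 was called higher, so setting the 731 aside removed only decreases from the calls. Of the 4542 others, 464 were higher (10.2%) and 401 were lower (8.83%), a balance tied to this choice. A filter on the IPO arrays alone has the opposite bias, since it admits circRNAs through the group in which they are high. With it, the median difference of the probes within the class 1 limits was -0.04, with 7.85% called in each direction. The class medians were then 0.01 in classes 2 and 3, 0.13 in class 4 and 0.33 in class 5, with 27.6% of class 5 higher and 6.31% lower. In class 1, 20 circRNAs were lower with normexp correction and 67 with the raw signal, both computed from the raw median in place of the processed signal, and in both cases class 5 held more (68 and 75). Against I/R 3 alone class 3 held the most (223, with 219 in class 1).

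Array by array, the class trend was steep against I/R 1 and I/R 2 and shallower against I/R 3. The IPO mean minus I/R 1 had a median of -1.04 in class 1 and 0.39 in class 5, and the IPO mean minus I/R 2 had medians of -1.02 and 0.20. Against I/R 3 the medians were -0.24, -0.05, 0.08, 0.23 and 0.42 from class 1 to class 5. The median of the IPO mean minus the N mean stayed between -0.10 and 0.07 in every class, with the N arrays placed on the same distribution of signals. The 3 IPO arrays lay close together, with a median standard deviation of 0.26 in class 1 and 0.34 in class 5, against 0.68 and 0.70 for the I/R arrays.

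The brightest class held the largest increases. The classes follow the IPO signal that enters the difference, so this order comes in large part from how they were formed. ASCRP4002727 had normalized signals of 7.06, 7.28 and 10.16 (log2) on I/R 1 to I/R 3 and of 14.90, 13.62 and 14.00 on IPO 1 to IPO 3. Every IPO value lay above every I/R value, and the gap was 6.01 ± 0.76 (SE; limma adjusted p = 0.0038). The background-corrected intensities behind it were 56.4, 59.1 and 3632 in I/R and 28208, 13856 and 18808 in IPO. The N mean was 14.19 ± 1.41 (SD, n = 3). ASCRP4007513 had 4.33, 5.15 and 7.91 on the I/R arrays and 12.02, 10.23 and 11.11 on the IPO arrays, a difference of 5.33 ± 0.84 (adjusted p = 0.0094). Its values on I/R 1 and I/R 2 lay close to the lowest member signals of those arrays, 4.09 and 5.12. For both circRNAs I/R 3 was brighter than I/R 1 and I/R 2 by more than the spread among the IPO arrays, and the difference between IPO 1 and IPO 2 and I/R 3, read in the same scan, was 4.10 for ASCRP4002727 and 3.21 for ASCRP4007513. Normexp correction took the difference of ASCRP4007513 to 4.25.

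In class 4, ASCRP4010643 had 4.36, 5.26 and 5.07 in I/R and 7.66, 7.91 and 8.50 in IPO. It was higher in IPO by 3.13 ± 0.40 (limma adjusted p = 0.0041). The values of I/R 1 and I/R 2 lay near the lowest signals of those arrays. ASCRP4008592 had 5.19, 5.62 and 4.30 in I/R and 8.69, 7.07 and 7.67 in IPO, a difference of 2.78 ± 0.51 (adjusted p = 0.0178), with an N mean of 9.15 ± 1.89 (SD, n = 3). The increases of class 3 were smaller, which the limit of that class on the IPO signal makes likely. ASCRP4005464 had 4.74, 5.16 and 4.62 in I/R and 6.45, 6.45 and 7.32 in IPO, a difference of 1.91 ± 0.39 (adjusted p = 0.0227). Its I/R 2 value lay near the lowest signal of that array. ASCRP4006138 differed by 1.89 ± 0.48 (adjusted p = 0.0474). After normexp correction the differences were 1.82 for ASCRP4010643, 1.63 for ASCRP4008592, 1.12 for ASCRP4006138 and 0.95 for ASCRP4005464, the last under 2-fold and no longer called. No class 2 circRNA was higher at the adjusted threshold. The largest at the unadjusted one, ASCRP4004925, had 5.40, 5.48 and 3.00 in I/R and 6.06, 6.06 and 6.48 in IPO (difference 1.57 ± 0.62, adjusted p = 0.155). Its I/R 3 value carried most of the difference, which was 0.76 without that array. ASCRP4002932, also of class 2, had a difference of 1.36 ± 0.55 (adjusted p = 0.163) and of 0.73 without I/R 3. Normexp correction ended both class 2 calls, with differences of 0.52 and 0.56.

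The decreases in IPO named here had an adjusted p below 0.05 and groups apart. Among circRNAs with both, the largest decreases of classes 3 to 5 with every value measured were 4.39- to 6.75-fold. ASCRP4000209 of class 5 had 12.74, 12.34 and 11.40 in I/R and 9.93, 9.27 and 9.85 in IPO, a difference of -2.48 ± 0.44 (limma adjusted p = 0.0146). ASCRP4006765, also of class 5, had outlier flags on I/R 1 and I/R 2, whose spots were missing from the fit. Its I/R 3 value was 13.08, against 9.53, 9.98 and 9.60 in IPO. The fitted difference was -3.37 (adjusted p = 0.0172) with 1 I/R value and a spread taken from the IPO arrays, and with the outlier spots kept it was -0.49 and not called. ASCRP4000664 of class 4 had 10.82, 10.09 and 9.62 in I/R and 8.21, 7.71 and 8.13 in IPO, a difference of -2.16 ± 0.41 (adjusted p = 0.0182). ASCRP4011082, also of class 4, was lower by a similar amount (-2.13 ± 0.44, adjusted p = 0.0227). In class 3, ASCRP4008899 had 9.59, 9.15 and 8.29 in I/R and 6.38, 6.10 and 6.29 in IPO, a difference of -2.76 ± 0.41 (adjusted p = 0.0074). ASCRP4003839 differed by -2.36 ± 0.40 (adjusted p = 0.0135). The I/R 3 value was the lowest of the I/R group in each of these with all values measured, and above every IPO value as the choice required. Within scan 1 the differences were smaller, at -1.81 for ASCRP4000209, -1.65 for ASCRP4000664, -1.17 for ASCRP4011082, -2.05 for ASCRP4008899 and -1.99 for ASCRP4003839.

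The named decreases of the dim classes were also chosen with groups apart, so I/R 3 had to lie above every IPO array for each. ASCRP4002701 of class 1 had 8.03, 8.01 and 9.69 in I/R and 5.19, 4.49 and 5.31 in IPO, a difference of -3.58 ± 0.51 (limma adjusted p = 0.0063). Here I/R 3 was the highest array, with a background-corrected intensity of 2575 against 46.1, 35.3 and 62.9 in IPO. ASCRP4007889 had 7.93, 7.98 and 8.04 in I/R and 4.79, 4.60 and 4.93 in IPO, a difference of -3.21 ± 0.33 (adjusted p = 0.0024). The N means of the pair were 5.38 and 4.38. In class 2, ASCRP4000731 had 7.82, 7.83 and 7.01 in I/R and 5.60, 5.64 and 5.36 in IPO, a difference of -2.02 ± 0.37 (adjusted p = 0.0178), and ASCRP4006227 differed by -2.01 ± 0.46 (adjusted p = 0.0339). Normexp correction shrank the differences of these dim circRNAs to -2.28 for ASCRP4002701, -1.90 for ASCRP4007889, -1.27 for ASCRP4000731 and -1.35 for ASCRP4006227. Within scan 1 the differences were -4.85, -3.35, -1.40 and -1.12 in the same order.

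Of the 10 circRNAs with the highest IPO signal, 2 were called higher at the unadjusted threshold, and none had an adjusted p below 0.05. ASCRP4012684 had 15.40, 15.79 and 16.42 in I/R and 17.33, 17.33 and 17.13 in IPO, a difference of 1.40 ± 0.38 (limma adjusted p = 0.0594). Within scan 1 the difference was 0.91, under 2-fold. ASCRP4005609 had 13.54, 13.78 and 14.70 in I/R and 15.40, 14.70 and 15.21 in IPO, a 2.14-fold difference (adjusted p = 0.141), its highest I/R value equalled its lowest IPO value, and the log2 difference was 0.19 with 75th percentile scaling and 0.35 within scan 1. The other 8, in order of IPO signal, were ASCRP4006710, ASCRP4006342, ASCRP4004008, ASCRP4011502, ASCRP4013042, ASCRP4007626, ASCRP4007838 and ASCRP4005042. ASCRP4004008 had the lowest difference of them, -0.70 ± 0.33 (adjusted p = 0.226), from 17.67, 17.33 and 17.33 in I/R to 16.74 or 16.75 on each IPO array. Quantile normalization gives the top probes of every array the same few values, so differences among these 10 are shifts of rank.

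The agreement of the arrays was counted over the 9 pairs of an IPO and an I/R array. The IPO value was above the I/R value in all 9 pairs for 618 circRNAs and below it in all 9 for 1068, of the 5268 with all values measured. With the circRNAs that had missing values, the groups did not overlap for 619 higher in IPO (11.7%) and 1070 lower (20.3%). Over all circRNA probes these shares were 12.4% and 15.2%. Of the 464 called higher, 434 were among the 619, and of the 671 called lower, 592 were among the 1070. The most common count, with 1124 circRNAs, was 3 of 9 pairs with IPO higher, which is the count when 1 I/R array lies below all IPO arrays and the other two above.

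I/R 3 stood apart from I/R 1 and I/R 2 in this count. I/R 1 lay above all IPO arrays for 2722 circRNAs and below all for 1439, and I/R 2 for 2800 and 1237. I/R 3 lay above for 2230 and below for 2251, an almost even split. For 878 circRNAs (16.7%), I/R 1 and I/R 2 lay above every IPO array and I/R 3 below every one, and for 252 (4.78%) the reverse held. I/R 1 and I/R 2 lay on opposite sides of the IPO arrays for 173 (3.28%). By class, the 878 included 253 of class 1 and 107 of class 5, and the 252 numbered 0, 19, 71, 90 and 72 from class 1 to class 5. ASCRP4012250 shows the wider gap of the second kind, with 5.22 and 5.70 on I/R 1 and I/R 2, 10.07 on I/R 3, and 8.40, 8.26 and 7.32 in IPO (difference 0.99, limma adjusted p = 0.597, and 2.51 without I/R 3, which is past the unadjusted threshold). ASCRP4011661 shows the first kind, with 5.42, 5.47 and 2.99 in I/R and 4.27, 4.14 and 4.20 in IPO (difference -0.43, adjusted p = 0.704).

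Within groups, 334 circRNAs (6.33%) differed by at least 2-fold between I/R 1 and I/R 2, and 308 to 426 (5.84% to 8.08%) between pairs of IPO arrays. Between I/R 3 and the other I/R arrays the numbers were 3074 (58.3%, with I/R 1) and 2463 (46.7%, with I/R 2).

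The change was compared between arrays that share no liver, I/R 1 and I/R 2 against a pair of IPO arrays and I/R 3 against the remaining IPO array. With IPO 1 as the remaining array, 585 circRNAs were at least 2-fold higher in IPO in the former, and 352 of these (60.2%) were also at least 2-fold higher than on I/R 3, against 16.3% of all 5273. With IPO 2 the share was 50.2% of 570, against 22.2%, and with IPO 3 it was 45.1% of 577, against 25.0%. Of the circRNAs at least 2-fold lower in the former (1140, 1159 and 1258), 23.9%, 23.6% and 19.8% were also at least 2-fold lower than on I/R 3, against 15.5%, 23.8% and 23.0% of all. A change of at least 2-fold in the opposite direction on I/R 3 was found for 8.21%, 14.6% and 24.1% of the increases, against 15.5%, 23.8% and 23.0% of all circRNAs at least 2-fold lower there. For the decreases it was found in 1.84%, 6.56% and 9.46%, against 16.3%, 22.2% and 25.0% of all at least 2-fold higher. The shares of increases and decreases were not compared with circRNAs of the same class, and the 3 splits share arrays with each other.

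Scan 1 holds IPO 1, IPO 2 and I/R 3, so the comparison within it has 1 I/R array and is given as values. The class medians of the difference were -0.27, -0.09, 0.04, 0.17 and 0.39. In class 5, 379 circRNAs were at least 2-fold higher in IPO and 180 at least 2-fold lower, and in class 1 the numbers were 54 and 211. Of the 464 circRNAs called higher over the 6 arrays, 402 were at least 2-fold higher within the scan, and of the 671 called lower, 350 were at least 2-fold lower. The direction within the scan was the same for all 464 called higher and for 660 of the 671 called lower (98.4%). These 3 arrays also enter the calls, so neither count is independent of them.

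Outside the 5273, 85 circRNA probes were well above background on all 3 IPO arrays and on no I/R array. For these, a lower bound of the difference sets the IPO mean against the mean of 1 limit per I/R array. The limit is the lowest measurable signal of that array, or the circRNA's own signal where that was higher. The bound was above 0 for 20 of them and at least 2-fold for 4. ASCRP4002260 had IPO values of 5.86, 6.34 and 6.93 (log2) and was at least 7.24-fold higher in IPO, with a limma adjusted p of 0.0140 over all circRNA probes. That p uses I/R signals of 1.74, 2.88 and 1.40, which were not well above background. The 85 were also selected as measured in IPO only, so the p is a description and no test of the change. ASCRP4001336 was at least 6.36-fold higher (adjusted p = 0.103), with the same limit. In the other direction, ASCRP4008196 was the only circRNA measured on every I/R array and on no IPO array, and it was at least 5.20-fold lower in IPO (adjusted p = 0.0939). Its I/R values were 5.59, 5.30 and 2.38, so the bound rests on the dim arrays I/R 1 and I/R 2. The p of this circRNA uses IPO signals that were not well above background, so it is no test of the change either.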

How the data were processed

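Arrays were 1-colour (Cy3). The authors deposited intensity files made with Feature Extraction (Agilent, 11.0.1.1 in the submitters' processing notes), not normalized between arrays, with the background-corrected intensity, the raw median, the local background and flags of each spot. The methods state quantile normalization and limma, with calls at a p-value below 0.05 and a fold change of 2.0 or more. Here, log2 values of the background-corrected intensity of non-control spots on the 6 arrays were quantile normalized and fitted with lmFit and eBayes (limma 3.58.1, R 4.3.3). The N arrays were placed rank for rank on the normalized distribution of the 6 arrays, so their distribution matches it by construction. Adjusted p-values (Benjamini-Hochberg) are over the 5273 circRNAs unless stated. Outlier spots were set to missing, which left 5 circRNAs with 6 missing values. No spot was saturated, and no pair of arrays shared a background-corrected intensity of a member. The number of arrays limits the precision.

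Named circRNAs are the 10 brightest in IPO, the 2 largest changes each way per class (fold change at least 2.0, adjusted p below 0.05, groups apart, or an unadjusted p below 0.05 where none passed), the widest gap of I/R 3 each way, and the largest bounds. The circRNAs, classes and lists were chosen with earlier results of these data known. The procedure was tested on simulated data. Normexp and raw-signal alternatives used the raw median intensity. Alternatives were Student's t-test (which the methods name for data other than the arrays), other filters, scalings, blocks, array weights and left-out arrays.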

Additional observations from a re-analysis of the deposited data

How the results depend on the processing

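The precision is limited by 3 arrays per group and by the spread between I/R 3 and the other I/R arrays. It is also limited by the dim I/R 1 and I/R 2, on which weak circRNAs were not measurable. Against 464 circRNAs higher, 671 lower and 352 at the adjusted threshold, normexp correction gave 292 higher and 177 lower, and the raw signal 294 lower. The number higher was 1403 (with 1337 lower) with no filter and 1410 (938 lower) with a filter of 3 of 6 arrays. Array weights gave 1145 lower and 1657 adjusted calls, but put a weight of 85.3 on I/R 2 against 0.237 and 0.0617 on I/R 1 and I/R 3. The scan as a block gave 982 higher and 1404 adjusted, and compares only IPO 1 and IPO 2 with I/R 3, so both rest in effect on 1 I/R array. Other counts were, for a fit of all 9 arrays, 789 adjusted, and for Student's t-test, 58 adjusted (1196 at an unadjusted p below 0.05). The class medians moved for class 1 to -0.33 and class 5 to 0.20 under normexp correction, for classes 4 and 5 to -0.14 with 75th percentile scaling, and to -0.071 and -0.10 with classes from all 6 arrays. For class 5 the median was 0.13 with classes from N. With classes from 1 IPO array and the difference from the other IPO arrays it was 0.11, 0.22 and 0.23 for IPO 1 to IPO 3. Within scan 1 the medians were -0.27, -0.086, 0.035, 0.17 and 0.39.

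Leaving out 1 array gave 345 to 561 higher, 442 (without IPO 2) to 1150 (without I/R 3) lower, 64 (without IPO 3) to 1675 (without I/R 3) adjusted calls, 34.9% to 64.2% of circRNAs with groups that did not overlap (32.0% with all arrays) and class 5 medians of 0.24 to 0.31. Alternatives chosen after seeing the data were a filter on IPO arrays alone (1409 higher, 850 lower, class medians -0.038, 0.0050, 0.0093, 0.13 and 0.33), a filter on N arrays alone (1394 higher, 901 lower), and I/R 1 and I/R 2 left out (1031 higher, 1049 lower, 1832 adjusted, with the lone I/R 3 assumed to vary like the IPO arrays). Differences reversed for ASCRP4011502 with 75th percentile scaling (-0.10), and with the scan as a block for ASCRP4007838 (0.092), ASCRP4006342 (0.000253), ASCRP4012250 (-1.75) and ASCRP4011661 (1.21). With 1 array left out, ASCRP4007838 ranged from -0.28 to 0.037, ASCRP4012250 from 0.096 to 2.51 and ASCRP4011661 from -1.24 to 0.023. The replicate block gave 272 adjusted calls, 430 higher and 494 lower, but the replicate numbers do not pair the mice (correlations of same-numbered deviations -0.53, 0.03 and -0.54). The causes of these shifts were not tested. Of the named circRNA values under alternatives, 359 kept their side of the threshold without a reversal. The 359 include ASCRP4006710 with the scan as a block, where its difference was 0. Of the other values, 21 lost the call, 2 gained it and 7 reversed.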
